A study of Rattus norvegicus with 12 samples.

Results

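The genes described here encode the machinery of mitosis and cytokinesis, from the kinase that starts mitosis to the ring that parts the daughter cells. They were taken by gene symbol from a list of 42 names, of which 38 were among the 17312 symbols measured in each library. Anln, Cenpe, Kif4a and Spc24 were not analysed here. All 38 passed the filter on low values, which 10518 genes passed. The study sequenced mRNA from cultured cardiomyocytes of Wistar rats, described in the series as ventricular cells of newborn animals, and asked how Wnt5a, a secreted Wnt ligand, and mechanical load act on these cells. The 12 libraries formed 4 groups of 3, which are stretched cells with an siRNA against Wnt5a, stretched cells with a control siRNA, unstretched cells with the Wnt5a siRNA and unstretched cells with the control siRNA. All cells had therefore received an siRNA. The sources used here do not give the degree or duration of stretch or the siRNA dose. Levels are in FPKM, fragments scaled to transcript length and library size, as the authors deposited them. Changes are differences of log2(FPKM + 1) between group means ± SE, tested with limma, and a gene is called higher or lower where the p-value adjusted over all 10518 genes is under 0.05. The log2(FPKM + 1) scale understates the change of low genes. Counts of members at an unadjusted p have no share of all genes beside them, so they do not set the members apart from other genes. Whether the replicates of a group are separate cultures is not stated in the labels, so each p-value sets a difference against a spread between libraries that may be purely technical.

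Mitosis is started by CDK1 bound to a B-type cyclin, watched over by the spindle checkpoint, ended when the anaphase-promoting complex destroys securin and cyclin B, and followed by cytokinesis at the cell's midzone. The genes of this machinery are transcribed together late in the cell cycle. In resting cells the DREAM complex, a repressor that contains the MuvB core, keeps them low through a promoter element named the cell cycle genes homology region, and in cycling cells MuvB with B-Myb and FOXM1 raises them, together with NF-Y at CCAAT boxes. Rodent heart muscle cells divide before birth and in the first days after it, and then largely replicate DNA without completing cytokinesis, while fibroblasts of the same heart keep dividing. RNA from a whole culture cannot tell fewer cells of a type from less RNA per cell.

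Most of the members whose promoters were searched held letters of the promoter elements named above. RefSeq promoter windows of the rat assembly GRCr8, which run from 250 bases before to 50 bases after the annotated start, were found by symbol for 31 of the 38 members, and the first window listed was used for each gene. No window was used for Foxm1, Tpx2, Ccna2, Ube2c, Aurkb, Incenp and Racgap1. The homology region was searched as TTTGAA or TTCGAA and the NF-Y box as CCAAT, on both strands. The homology region letters stood in 25 of 31 member windows (80.6%), against 13.1% of 8043 windows of tested genes and 19.5% of all 27457 windows. CCAAT stood in 24 of 31 (77.4%), against 37.7% of tested genes and 37.7% of all windows. At least 2 CCAAT stood in 18 of 31 (58.1%), against 13.7% and 11.5%, and both elements stood together in 21 of 31 (67.7%), against 5.41% and 7.83%. The E2F motifs TTTCCCGC and TTTGGCGC are typical of genes of the earlier S phase. They stood in 0 of 31 member windows, against 2.05% and 0.995% of tested genes. Both are so rare among tested genes that 0 of 31 does not set the members apart. A match is a run of letters, not a measured binding site, and members without these letters may hold variants that were not searched. The first window listed for Aurka may not be its promoter. It ends in the first codons of the protein, with letters of splice sites before and after them. The lack of the elements there says nothing about the Aurka promoter.

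The following 6 windows show how the elements are arranged in the main mitotic kinase, both B-type cyclins, the activator of the anaphase-promoting complex, and the genes of Ki-67 and topoisomerase II alpha. They read 5′ to 3′ on the strand of the gene. Capitals mark the matches, so that ATTGG is CCAAT and TTCAAA is TTTGAA on the other strand. In Mki67 a homology region and a CCAAT box share letters, in the run TTTGAATTGG.
Cdk1 (chr20:19265043-19265342, GRCr8, plus strand): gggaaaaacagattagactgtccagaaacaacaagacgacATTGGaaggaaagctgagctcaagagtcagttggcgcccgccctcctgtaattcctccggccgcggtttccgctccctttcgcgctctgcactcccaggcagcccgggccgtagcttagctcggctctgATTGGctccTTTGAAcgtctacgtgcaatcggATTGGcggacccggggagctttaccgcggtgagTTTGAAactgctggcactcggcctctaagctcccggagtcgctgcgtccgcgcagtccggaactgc
Ccnb1 (chr2:33655176-33655475, GRCr8, minus strand): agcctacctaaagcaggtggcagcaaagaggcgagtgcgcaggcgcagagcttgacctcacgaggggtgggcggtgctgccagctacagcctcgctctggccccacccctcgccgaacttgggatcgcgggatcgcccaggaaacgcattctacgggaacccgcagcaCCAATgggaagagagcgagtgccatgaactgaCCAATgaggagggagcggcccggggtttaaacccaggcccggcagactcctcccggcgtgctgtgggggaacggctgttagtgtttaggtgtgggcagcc
Ccnb2 (chr8:79981609-79981908, GRCr8, minus strand): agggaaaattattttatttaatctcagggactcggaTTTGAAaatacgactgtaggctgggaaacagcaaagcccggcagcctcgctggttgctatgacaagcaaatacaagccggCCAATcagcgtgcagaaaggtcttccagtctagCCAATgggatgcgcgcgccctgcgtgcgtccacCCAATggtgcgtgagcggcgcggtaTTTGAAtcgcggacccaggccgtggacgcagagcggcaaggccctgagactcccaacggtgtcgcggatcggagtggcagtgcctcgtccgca
Cdc20 (chr5:137255750-137256049, GRCr8, minus strand): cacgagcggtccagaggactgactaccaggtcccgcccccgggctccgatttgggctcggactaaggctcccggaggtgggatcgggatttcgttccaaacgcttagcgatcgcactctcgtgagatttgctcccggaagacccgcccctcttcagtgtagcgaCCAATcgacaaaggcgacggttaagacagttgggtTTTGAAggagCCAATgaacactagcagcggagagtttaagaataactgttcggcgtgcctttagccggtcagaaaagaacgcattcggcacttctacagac
Mki67 (chr1:199952544-199952843, GRCr8, minus strand): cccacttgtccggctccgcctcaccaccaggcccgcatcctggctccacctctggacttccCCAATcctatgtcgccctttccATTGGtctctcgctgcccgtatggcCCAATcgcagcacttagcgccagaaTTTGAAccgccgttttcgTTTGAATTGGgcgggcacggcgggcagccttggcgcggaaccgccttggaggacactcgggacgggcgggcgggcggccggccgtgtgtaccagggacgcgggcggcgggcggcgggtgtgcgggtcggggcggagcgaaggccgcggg
Top2a (chr10:84473044-84473343, GRCr8, minus strand): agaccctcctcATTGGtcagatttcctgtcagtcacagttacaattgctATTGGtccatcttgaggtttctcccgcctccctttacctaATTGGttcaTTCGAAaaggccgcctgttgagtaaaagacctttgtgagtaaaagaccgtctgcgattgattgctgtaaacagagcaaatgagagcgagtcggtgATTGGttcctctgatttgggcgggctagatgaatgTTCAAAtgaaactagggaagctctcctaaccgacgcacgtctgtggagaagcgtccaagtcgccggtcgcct

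In Ccnb2 3 CCAAT boxes stood at −134, −101 and −68, upstream of a TTTGAA at −43, with another TTTGAA at −214, counting the first base of the match from the annotated start. Cdc20 held a TTTGAA at −51 between CCAAT boxes at −86 and −41. Ccnb1 held CCAAT at −82 and −50 and neither form of the homology region. Over the 31 members there were 31 matches to the homology region, 24 of them within 100 bases of the start, and their first bases lay at −225 to 34 with a median of −43. The 6 members with a window but without the homology region letters were Aurka, Bub1, Ccnb1, Kif11, Kif20a and Kif2c. With Wnt5a siRNA in unstretched cells their log2 changes were 0.56 to 0.72 (median 0.63), and those of the 25 members with the letters were 0.31 to 0.86 (median 0.69), so these ranges overlapped. Aurka is counted among the 6 although its window may not be its promoter.

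**Figure D1:**
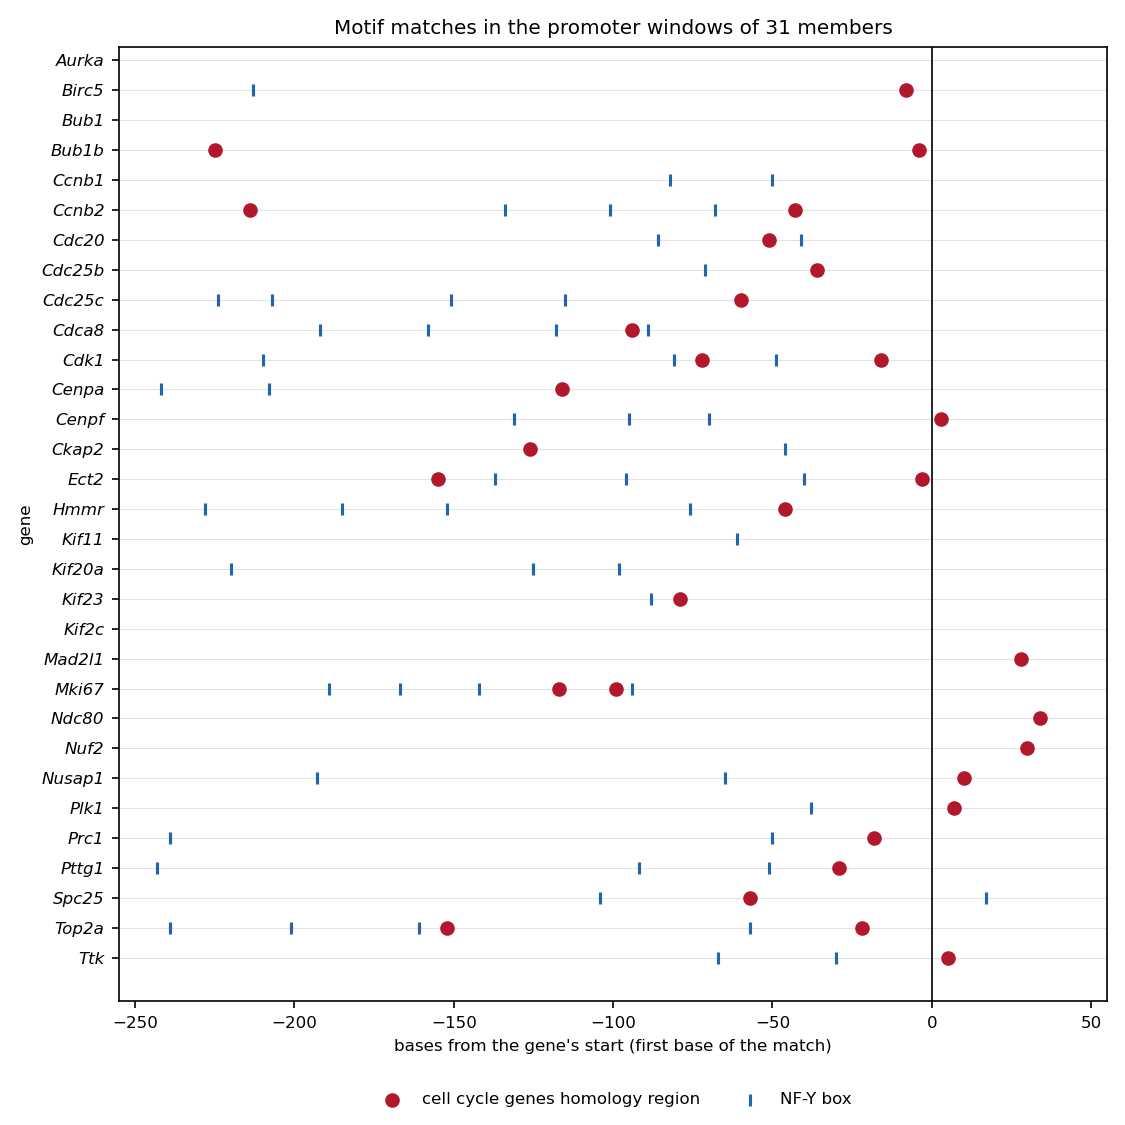
Positions of matches to the cell cycle genes homology region (TTTGAA or TTCGAA, circles) and to the NF-Y box (CCAAT, ticks) in the promoter windows of 31 members, on either strand. The x axis gives the first base of the match in bases from the annotated start, and 24 of 31 homology region matches lie within 100 bases of it.

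Wnt5a, the target of the siRNA, was at 6.15, 4.60 and 6.81 FPKM in the unstretched Wnt5a siRNA libraries, against 12.3, 10.4 and 11.6 FPKM in the unstretched controls, a fall that passed the test (−0.87 ± 0.14, adjusted p = 0.00142). Under stretch it was at 6.22, 5.88 and 5.56 FPKM with Wnt5a siRNA, against 6.52, 5.66 and 8.22 FPKM with control siRNA. Those libraries overlapped and the difference did not pass with all libraries (−0.17 ± 0.14, adjusted p = 0.387) or without stretched control 3 (−0.04 ± 0.13, adjusted p = 0.825). Among stretched cells the target transcript therefore did not tell the siRNAs apart. Wnt5a was lower in stretched than in unstretched controls (−0.68 ± 0.14, adjusted p = 0.00139, or −0.81 without stretched control 3). With Wnt5a siRNA it averaged 5.885 FPKM in stretched and 5.853 FPKM in unstretched cells (0.02 ± 0.14, adjusted p = 0.948). Stretched control 3 stood apart from its group. Of the 3 stretched controls it held the highest value in 37 of 38 members, against 40.3% of all tested genes, and exceeded the mean of controls 1 and 2 by a median factor of 1.49 over the members (1.02 to 1.98). The summed level of 14 fibroblast markers was 11561 FPKM in it, against 7519 and 7313 in stretched controls 1 and 2, that of 12 macrophage and leukocyte markers 521.9 against 314 and 315.3, and that of 13 cardiomyocyte markers 14867 against 19558 and 22668. The members' counts and changes that rest on stretched controls are therefore also given without this library, except where another setting is combined with them. Its choice rests partly on the members' own values, and leaving it out keeps only stretched controls 1 and 2. It also narrows the spread against which changes are tested. The SE of Ccnb1 for Wnt5a siRNA with stretch went from 0.157 to 0.098. Adjusted p-values without stretched control 3 therefore depend on that choice and do not replace those with all libraries. The marker sums follow their most abundant markers, and not every marker went with its sum, among them Fbln1 and Myh7. The part of these marker differences in the results was not tested.

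Setting every library to the same sum of FPKM, called TPM scaling below, moved the median log2 change of all tested genes to −0.20 for stretch with control siRNA, −0.12 for stretch with Wnt5a siRNA and 0.10 for Wnt5a siRNA under stretch. It moved that of Wnt5a siRNA without stretch to 0.007 only. Summed FPKM were 619742 to 659933 in stretched Wnt5a siRNA, 676014 to 709021 in stretched control, 575161 to 607276 in unstretched Wnt5a siRNA and 588509 to 598628 in unstretched control libraries. All 13 cardiomyocyte markers listed were above 1 FPKM in all 12 libraries, with sums of 14452 to 24892 FPKM. Fibroblast markers summed to 5455 to 12577 FPKM, with Col1a2 listed at 0 in every library, so the cultures also held fibroblast transcripts.

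With Wnt5a siRNA in unstretched cells the mitotic genes rose as a body. Of the 38 members 36 were called higher, against 14.6% of all tested genes, and 0 were called lower, against 13.9%. At an unadjusted p under 0.05 in limma all 38 were higher. Their median log2 change was 0.60 (range 0.31 to 0.86), while the median of all tested genes was 0.001, and the median was 0.61 with TPM scaling. In 37 of 38 members all 3 Wnt5a siRNA libraries lay above all 3 controls, as was so for 24.7% of tested genes. The remaining 2 members, Nusap1 and Pttg1, had log2 changes of 0.31 and 0.60 (adjusted p = 0.0924 and 0.0549). The summed level of all 38 members was 609.6, 558.4 and 577.2 FPKM in the unstretched Wnt5a siRNA libraries, against 401.9, 330.7 and 356.5 FPKM in the unstretched controls, so that the lowest sum with the siRNA stood above the highest without it. Under every 1 of 19 alternative settings that gave a value, 21 of the 36 kept their call, among them Ccna2, Ccnb1, Ccnb2, Foxm1, Plk1, Cdc20, Cenpa, Kif11, Ect2, Top2a and Mki67. Of the 15 others Ndc80 lost its call under 13 of the settings and Mad2l1 and Tpx2 under 11 each. Without unstretched Wnt5a siRNA replicate 1 the count of higher members was 22, with Cdk1, Aurkb, Tpx2, Bub1, Mad2l1, Ttk, Ube2c, Cenpf, Ndc80, Spc25, Kif2c, Hmmr, Ckap2 and Kif23 lost.

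**Figure D2:**
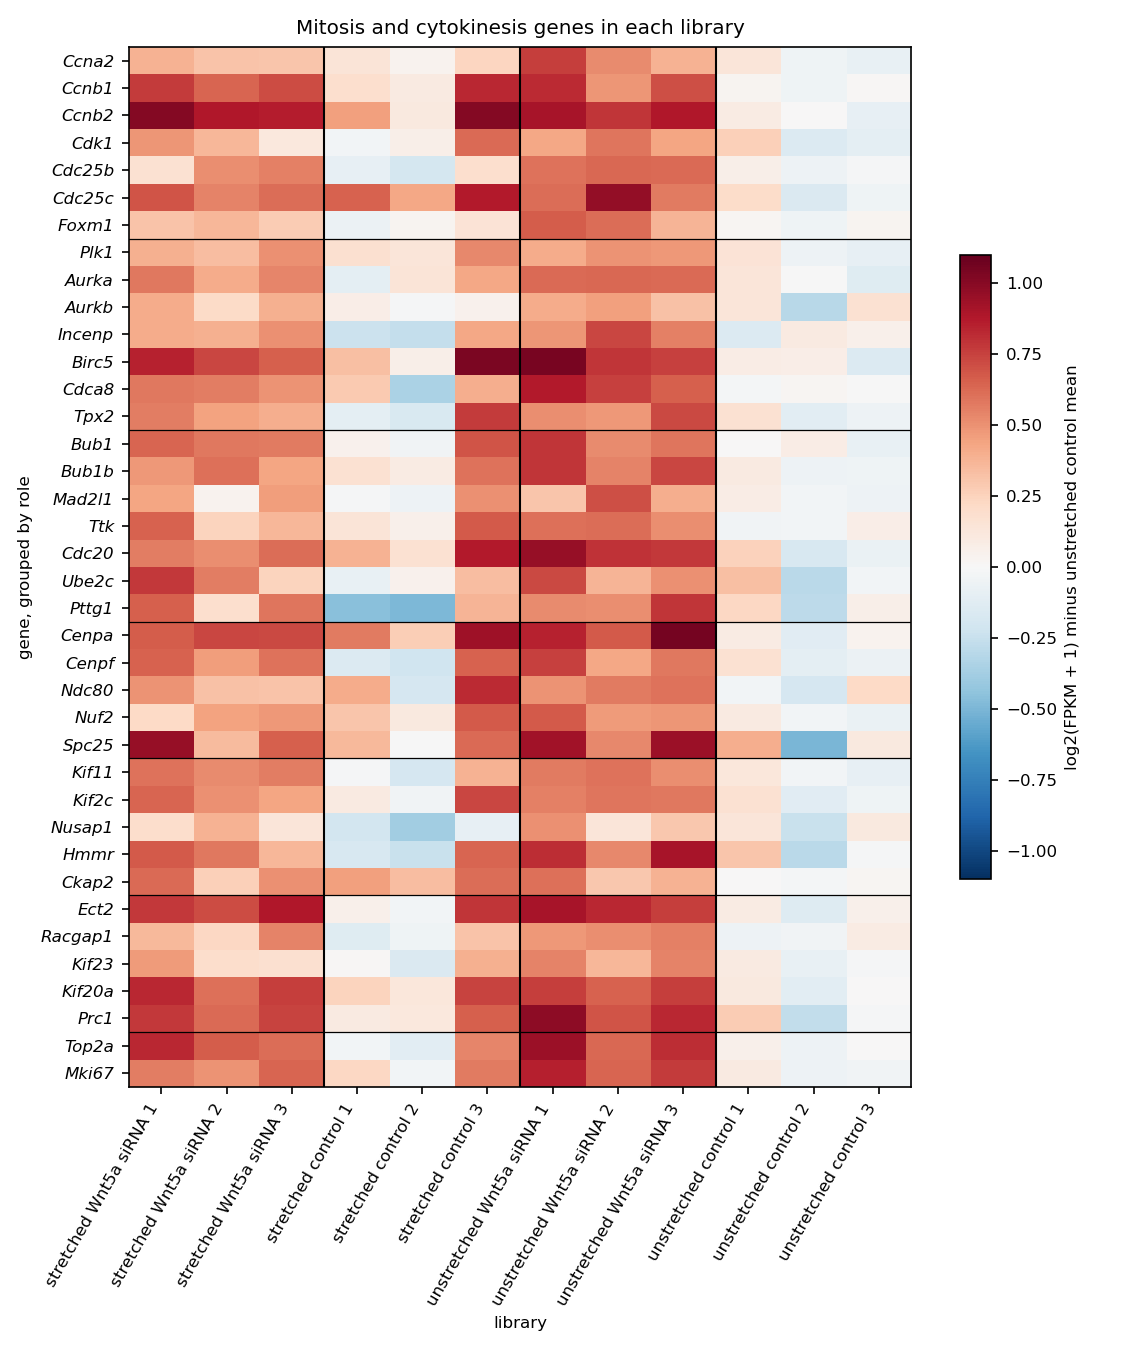
Level of each of the 38 members (rows, grouped by role) in each of the 12 libraries (columns), as log2(FPKM + 1) minus the mean of the unstretched controls. Every row of the 6 Wnt5a siRNA libraries is above 0, and stretched control 3 differs from stretched controls 1 and 2.

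Under stretch the same comparison gave fewer calls and depended on which libraries were included. Of the 38 members 9 were called higher with Wnt5a siRNA, against 13.2% of all tested genes, and 0 lower, against 14.2% (median 0.32, range −0.03 to 0.67). No member was lower at an unadjusted p under 0.05 in limma either, and 19 were higher, with no share of all genes taken at that threshold. Without stretched control 3 the count was 27 higher, against 21.8% of 10492 genes tested then, and 0 lower, against 22.6%, with a median of 0.50 and all 38 changes above 0. All 3 stretched Wnt5a siRNA libraries lay above stretched controls 1 and 2 in 33 members, as in 31.8% of tested genes. Stretched control 3 lay above all 3 of them in 16 members, among them in 15 and below them in 7. The member sums were 566, 515.1 and 524.2 FPKM in the stretched Wnt5a siRNA libraries, against 390.1, 358.8 and 557.6 FPKM in stretched controls 1, 2 and 3. No member was called without stretched control 1 or without stretched control 2. The count was 2, 4 and 3 without stretched Wnt5a siRNA 1, 2 and 3, 4 and 5 without unstretched Wnt5a siRNA 1 and 2, and 4 without unstretched control 3. TPM scaling gave 18 higher, while among all tested genes it moved the count of higher ones from 1386 to 2190.

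**Figure D3:**
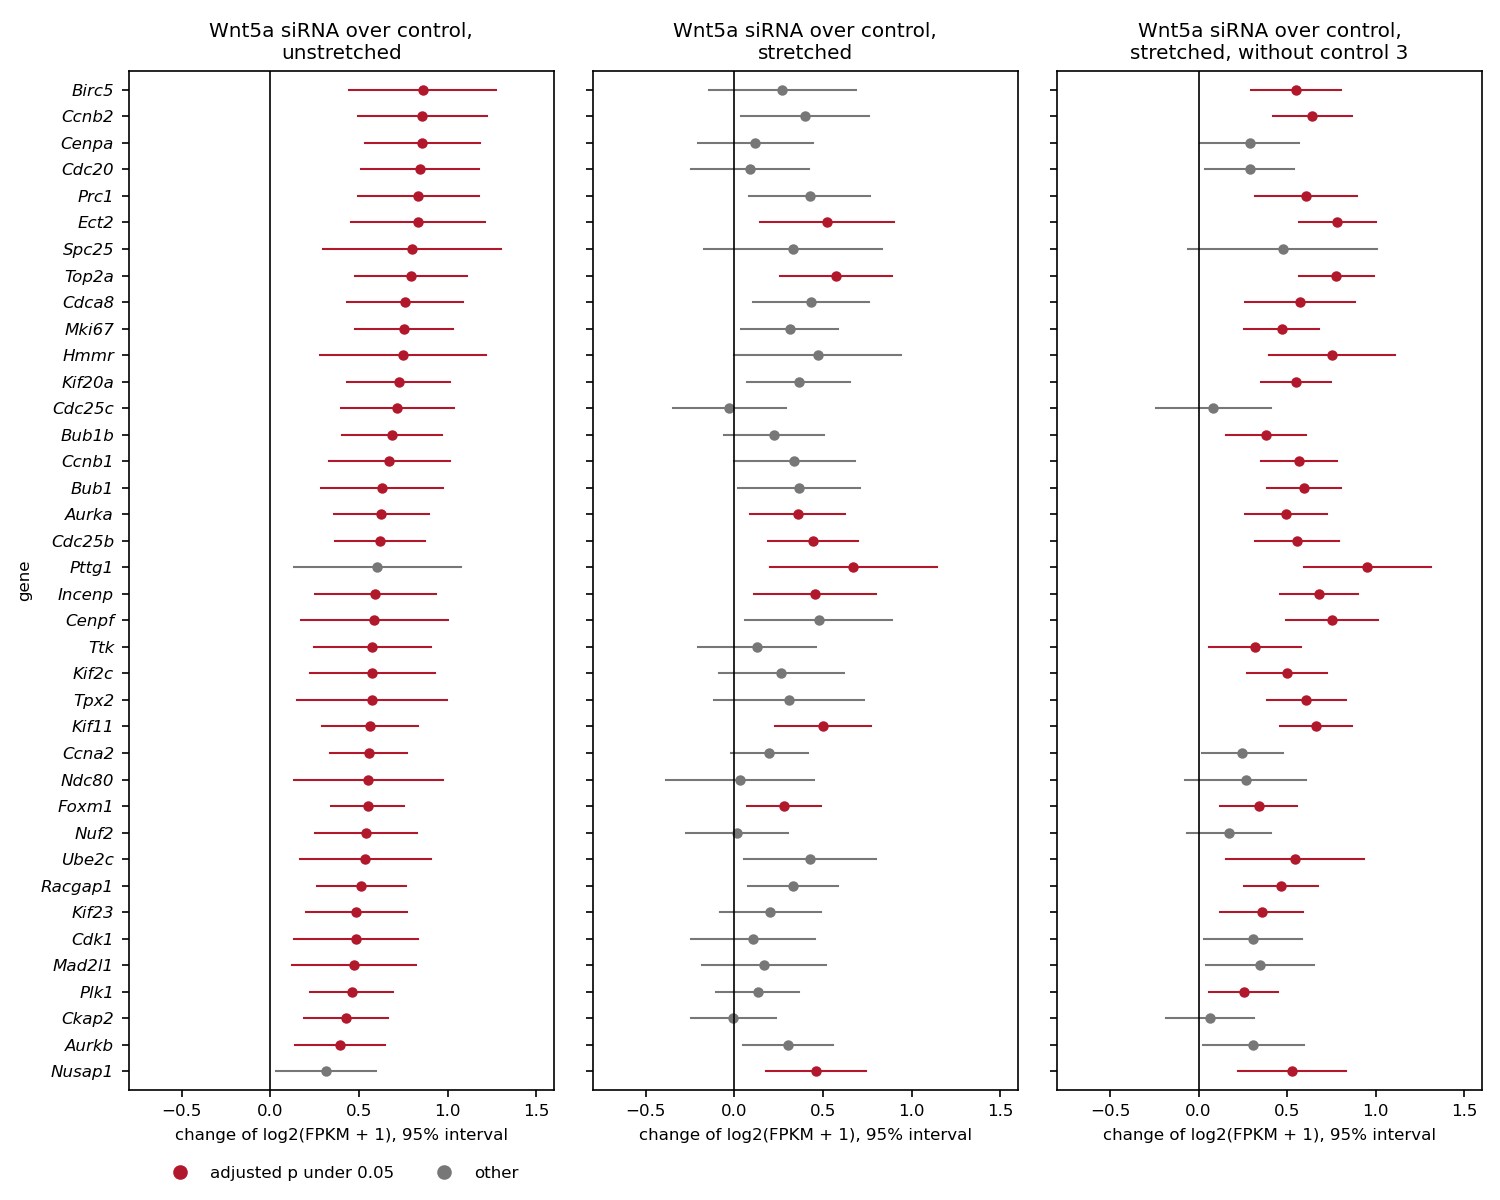
Change of log2(FPKM + 1) with Wnt5a siRNA for each member, with 95% intervals, in unstretched cells, in stretched cells and in stretched cells without stretched control 3. Points in red passed the test, which 36, 9 and 27 members did.

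The CDK1 engine comprises the kinase, its cyclins, the phosphatases that activate it and the transcription factor FOXM1. With Wnt5a siRNA all 7 of its members were called higher in unstretched cells. In stretched cells Cdc25b and Foxm1 were called higher, and 4 members without stretched control 3. For the counts by role here and below, 14.6% of all tested genes were higher without stretch and 13.2% with it. Without stretched control 3 it was 21.8% with stretch. With so few members in each role, these counts do not set one role apart from another. Cdk1, the kinase itself, had 41.1, 46.0 and 41.3 FPKM in the unstretched Wnt5a siRNA libraries, against 36.4, 27.2 and 28.1 in the unstretched controls. Stretched cells gave 42.8, 39.2 and 33.0 FPKM with Wnt5a siRNA, against 29.6, 31.7 and 47.2 with control siRNA. The unstretched groups did not overlap, and stretched control 3 held the highest value of all 12 libraries. The rise without stretch was 1.4-fold (0.48 ± 0.16, adjusted p = 0.0414). It was not called with the replicate number as a block, without a trend in the variance or a filter on low values, or without any of unstretched Wnt5a siRNA 1, 2 and 3, unstretched controls 2 and 3 or stretched Wnt5a siRNA 2. Under stretch Cdk1 did not pass (0.10 ± 0.16, adjusted p = 0.657), nor without stretched control 3 (0.31, adjusted p = 0.0667).

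Ccnb1, cyclin B1, stood at 14.0, 10.9 and 12.9 FPKM in the unstretched Wnt5a siRNA libraries, against 7.67, 7.25 and 7.60 FPKM in the unstretched controls. Under stretch the values were 13.5, 12.2 and 13.0 FPKM with Wnt5a siRNA, against 8.67, 8.11 and 14.1 with control siRNA. The 3 unstretched controls lay close together and below all libraries with the siRNA, and stretched controls 1 and 2 lay below them too. The rise without stretch was 1.68-fold (0.67 ± 0.16, adjusted p = 0.00859). Under stretch it was 0.34 ± 0.16 (adjusted p = 0.125) with all libraries and 0.57 ± 0.10 (adjusted p = 0.000799) without stretched control 3. Ccnb2, cyclin B2, had 20.7, 19.0 and 20.4 FPKM in unstretched Wnt5a siRNA cells, against 11.3, 10.6 and 9.86 FPKM in unstretched controls. In stretched cells it had 22.3, 20.3 and 20.1 FPKM with Wnt5a siRNA, against 14.8, 11.4 and 22.4 with control siRNA. Stretched control 3 was level with the highest Wnt5a siRNA library, and stretched controls 1 and 2 lay between the unstretched groups. The rise without stretch was 1.89-fold (0.86 ± 0.17, adjusted p = 0.00337). Under stretch Ccnb2 changed by 0.40 (adjusted p = 0.0942), and without stretched control 3 by 0.64 (adjusted p = 0.000467).

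Ccna2, cyclin A2 of the S and G2 phases, had 25.4, 21.3 and 19.2 FPKM in the unstretched Wnt5a siRNA libraries, against 16.0, 14.0 and 13.7 FPKM in the unstretched controls. With stretch it had 19.3, 18.3 and 18.2 FPKM under Wnt5a siRNA, against 16.1, 15.0 and 17.3 under control siRNA. Neither pair of groups overlapped, and the stretched groups lay nearer to each other. The change was 0.55 ± 0.10 without stretch (adjusted p = 0.00233) and did not pass with stretch (0.20 ± 0.10, adjusted p = 0.154), nor without stretched control 3 (0.25, adjusted p = 0.075). Foxm1, the transcription factor of the late cell cycle, had 10.3, 9.90 and 8.22 FPKM in unstretched Wnt5a siRNA cells, against 6.23, 5.90 and 6.26 FPKM in unstretched controls. In stretched cells the values were 7.88, 8.17 and 7.63 FPKM with Wnt5a siRNA, against 5.80, 6.27 and 6.91 with control siRNA. All Wnt5a siRNA libraries lay above all controls, stretched control 3 included. Its change was 0.55 ± 0.10 without stretch (adjusted p = 0.00208) and 0.28 ± 0.10 with it (adjusted p = 0.0464), or 0.34 without stretched control 3 (adjusted p = 0.0155). The call with stretch was lost under the replicate block, after quantile normalization, without a filter on low values, and without any single library other than stretched control 3 and unstretched Wnt5a siRNA 3.

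CDC25B and CDC25C are the phosphatases that switch CDK1 on. Cdc25b had 13.5, 13.7 and 13.6 FPKM in the unstretched Wnt5a siRNA libraries, against 8.98, 8.17 and 8.45 FPKM in the unstretched controls. With stretch the levels were 9.70, 12.6 and 13.0 FPKM with Wnt5a siRNA, against 7.97, 7.33 and 9.85 with control siRNA. Stretched control 3 lay just above the lowest stretched Wnt5a siRNA library, and the other controls lay below all of them. Cdc25b rose by 0.62 ± 0.12 without stretch (adjusted p = 0.00304) and by 0.44 ± 0.12 with it (adjusted p = 0.0172), a call lost without stretched control 1 or 2 or stretched Wnt5a siRNA 2 or 3. Leaving out stretched control 3 gave a rise of 0.55 (adjusted p = 0.00178). Cdc25c had 3.97, 5.34 and 3.82 FPKM in unstretched Wnt5a siRNA cells, against 2.74, 1.91 and 2.15 FPKM in unstretched controls. With stretch the values were 4.25, 3.75 and 3.98 FPKM for Wnt5a siRNA, against 4.09, 3.36 and 4.96 for control siRNA. Only the unstretched controls stood low, while the other 9 libraries overlapped. Cdc25c rose 1.93-fold without stretch (0.72 ± 0.15, adjusted p = 0.00451) and changed by −0.03 ± 0.15 with it (adjusted p = 0.901), or 0.08 without stretched control 3 (adjusted p = 0.673). By level in the unstretched controls Cdc25c was the lowest of the members, above 10.1% of tested genes, and Cdk1 the highest, above 69.9%.

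The mitotic kinases and the chromosomal passenger complex, which corrects faulty attachments of chromosomes to the spindle, held 7 members. With Wnt5a siRNA all 7 were called higher in unstretched cells, 2 (Aurka and Incenp) in stretched cells, and 6 in stretched cells without stretched control 3. Plk1, polo-like kinase 1, had 12.3, 13.1 and 12.9 FPKM in the unstretched Wnt5a siRNA libraries, against 10.1, 8.59 and 8.38 in the unstretched controls. Under stretch it was at 12.1, 11.6 and 13.2 FPKM with Wnt5a siRNA, against 10.3, 9.98 and 13.4 with control siRNA. The unstretched groups were apart, and stretched control 3 stood above all others. Plk1 changed by 0.46 ± 0.11 without stretch (adjusted p = 0.00908). With stretch the change was 0.13 ± 0.11 (adjusted p = 0.384), and 0.25 ± 0.09 without stretched control 3 (adjusted p = 0.038).

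Aurkb, aurora kinase B and the enzyme of the passenger complex, had 12, 12.4 and 11.3 FPKM in unstretched Wnt5a siRNA cells, against 9.79, 6.94 and 10.1 in unstretched controls. With stretch the levels were 12.04, 10.4 and 11.9 FPKM with Wnt5a siRNA, against 9.33, 8.73 and 9.17 with control siRNA. Here stretched control 3 lay between stretched controls 1 and 2, and neither pair of groups overlapped. The change was 0.39 ± 0.12 without stretch (adjusted p = 0.0257), lost without unstretched Wnt5a siRNA 1 or 2 or unstretched control 2, and 0.30 ± 0.12 with stretch, which did not pass (adjusted p = 0.073). Leaving out stretched control 3 gave 0.31 (adjusted p = 0.0728). Incenp, the scaffold of the complex, had 10.5, 12.7 and 11.1 FPKM in the unstretched Wnt5a siRNA libraries, against 6.38, 7.78 and 7.56 FPKM in the unstretched controls. Under stretch the values were 9.88, 9.78 and 10.6 FPKM with Wnt5a siRNA, against 5.97, 5.86 and 10.05 with control siRNA. Stretched controls 1 and 2 were the lowest of all libraries, and control 3 lay among the stretched Wnt5a siRNA libraries. Incenp rose by 0.59 ± 0.16 without stretch (adjusted p = 0.0156), a call lost without unstretched Wnt5a siRNA 2 or unstretched control 1. With stretch it rose by 0.46 ± 0.16 (adjusted p = 0.0491), or by 0.68 without stretched control 3 (adjusted p = 0.00032). The call with all stretched libraries was lost without any 1 of the other 11, and without a filter on low values, after quantile normalization and without a trend in the variance.

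Birc5, survivin, a subunit of the complex, had 21.2, 17.6 and 17.1 FPKM in unstretched Wnt5a siRNA cells, against 10.4, 10.3 and 8.71 in unstretched controls. Stretched cells gave 18.4, 17.0 and 16.0 FPKM with Wnt5a siRNA, against 12.6, 10.2 and 21.1 with control siRNA. Stretched control 3 was above all stretched Wnt5a siRNA libraries and controls 1 and 2 below them. The rise without stretch, 1.9-fold, was the largest change of log2(FPKM + 1) of the members (0.86 ± 0.19, adjusted p = 0.00679), with Ccnb2 and Cenpa close to it. By fold of mean FPKM other members rose more, among them Cenpa (2.03-fold). With stretch it was 0.27 ± 0.19 (adjusted p = 0.307), and 0.55 ± 0.12 without stretched control 3 (adjusted p = 0.00279). Cdca8, borealin of the same complex, rose by 0.76 without stretch (adjusted p = 0.00371) and stood at 0.43 with it (adjusted p = 0.0503). Aurka, the kinase of the centrosomes, rose by 0.63 (adjusted p = 0.00371) and 0.36 (adjusted p = 0.0493) in these comparisons. Its call with stretch was lost without any 1 library other than stretched control 3, and under 4 of the other settings. Tpx2, which activates Aurka on the spindle, rose by 0.57 without stretch (adjusted p = 0.0448) and changed by 0.31 with it (adjusted p = 0.255). Without stretched control 3 the changes with stretch were 0.57 for Cdca8, 0.49 for Aurka and 0.61 for Tpx2 (adjusted p = 0.00669, 0.00305 and 0.000689).

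Genes of the spindle checkpoint and of anaphase held 7 members, of which 6 were called higher with Wnt5a siRNA in unstretched cells. In stretched cells 1 (Pttg1) was, and 5 were without stretched control 3. The share in stretched cells, 14.3%, was near the 13.2% of all tested genes. Bub1b, the checkpoint protein BubR1, had 8.26, 6.85 and 7.94 FPKM in the unstretched Wnt5a siRNA libraries, against 4.75, 4.19 and 4.22 in the unstretched controls. Stretched cells had 6.504, 7.21 and 6.28 FPKM with Wnt5a siRNA, against 5.03, 4.73 and 7.15 with control siRNA. The unstretched groups did not overlap, and stretched control 3 lay just under the highest stretched Wnt5a siRNA library. Bub1b rose 1.75-fold without stretch (0.69 ± 0.13, adjusted p = 0.00299). Under stretch its change was 0.22 ± 0.13 (adjusted p = 0.213), or 0.38 ± 0.10 without stretched control 3 (adjusted p = 0.0111).

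Cdc20, which activates the anaphase-promoting complex, had 30.5, 27.2 and 26.8 FPKM in unstretched Wnt5a siRNA cells, against 18.3, 13.4 and 14.4 FPKM in unstretched controls. With stretch it had 22.9, 22.2 and 23.9 FPKM under Wnt5a siRNA, against 20.2, 17.2 and 28.7 under control siRNA. The unstretched Wnt5a siRNA libraries were high and the unstretched controls low, with the stretched Wnt5a siRNA libraries between them. Cdc20 rose 1.83-fold without stretch (0.84 ± 0.15, adjusted p = 0.00247) and changed by 0.09 ± 0.15 with it (adjusted p = 0.69), or 0.29 without stretched control 3 (adjusted p = 0.0614). Pttg1, securin, had 12.7, 12.6 and 15.5 FPKM in the unstretched Wnt5a siRNA libraries, against 10.2, 6.83 and 8.99 FPKM in the unstretched controls. In stretched cells the values were 14.1, 9.84 and 13.4 FPKM with Wnt5a siRNA, against 5.95, 5.80 and 11.4 with control siRNA. Stretched controls 1 and 2 were the lowest of all libraries, and the unstretched groups did not overlap. Pttg1 rose by 0.67 ± 0.22 under stretch (adjusted p = 0.0384), and by 0.95 ± 0.16 without stretched control 3 (adjusted p = 0.000788). The call was lost without stretched control 1 or 2, without replicate 1 or 3 of stretched Wnt5a siRNA, without unstretched control 3 or unstretched Wnt5a siRNA 1, without a filter on low values and after quantile normalization. Of the others, Bub1, Mad2l1 and Ttk of the checkpoint and Ube2c, an enzyme that serves the anaphase-promoting complex, rose by 0.63, 0.47, 0.58 and 0.54 without stretch. Their changes with stretch ran over 0.13 to 0.43 and did not pass with all libraries. They were, without stretched control 3, 0.60, 0.35, 0.32 and 0.54 (adjusted p = 0.0005, 0.0611, 0.047 and 0.0268).

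The centromere and kinetochore, where chromosomes meet the spindle, were covered by 5 members. All 5 were called higher with Wnt5a siRNA in unstretched cells and none in stretched cells, while without stretched control 3 only Cenpf was. Cenpa, the histone that marks centromeres, had 7.78, 6.82 and 9.12 FPKM in unstretched Wnt5a siRNA cells, against 4.20, 3.47 and 4.02 in unstretched controls. In stretched cells it had 6.76, 7.16 and 7.11 FPKM with Wnt5a siRNA, against 6.28, 4.91 and 8.35 with control siRNA. The unstretched controls stood below the other 9 libraries. The rise without stretch was 2.03-fold (0.86 ± 0.15, adjusted p = 0.00207), and the change with stretch was 0.12 ± 0.15 (adjusted p = 0.582), or 0.29 without stretched control 3 (adjusted p = 0.0857).

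Cenpf, a large protein of the outer kinetochore, had 8.63, 6.70 and 7.57 FPKM in the unstretched Wnt5a siRNA libraries, against 5.45, 4.32 and 4.47 in the unstretched controls. Under stretch it was at 7.96, 6.90 and 7.67 FPKM with Wnt5a siRNA, against 4.15, 3.93 and 7.99 with control siRNA. Stretched controls 1 and 2 were the lowest 2 libraries, and stretched control 3 was above all stretched Wnt5a siRNA libraries. Cenpf rose by 0.59 ± 0.19 without stretch (adjusted p = 0.0371), a call lost without any 1 unstretched library other than control 1, without stretched Wnt5a siRNA 1 and without a filter on low values. With stretch its change was 0.47 ± 0.19 (adjusted p = 0.0823), and 0.75 ± 0.12 without stretched control 3 (adjusted p = 0.000472). Nuf2, of the Ndc80 complex that grips microtubules, had 12.3, 10.5 and 10.7 FPKM in unstretched Wnt5a siRNA cells, against 7.96, 7.21 and 6.95 FPKM in unstretched controls. Stretched cells had 8.73, 10.3 and 10.6 FPKM with Wnt5a siRNA, against 9.33, 8.01 and 12.3 with control siRNA. The stretched groups overlapped throughout, and all stretched controls lay above all unstretched ones. Nuf2 rose by 0.54 ± 0.13 without stretch (adjusted p = 0.0108) and changed by 0.02 ± 0.13 with it (95% interval −0.27 to 0.30, adjusted p = 0.942). Ndc80 and Spc25 of the same complex rose by 0.55 and 0.80 without stretch (adjusted p = 0.049 and 0.0225). With stretch they stood at 0.03 and 0.33 and did not pass. Without stretched control 3 Nuf2, Ndc80 and Spc25 stood at 0.17, 0.27 and 0.48 (adjusted p = 0.224, 0.187 and 0.133).

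**Figure D4:**
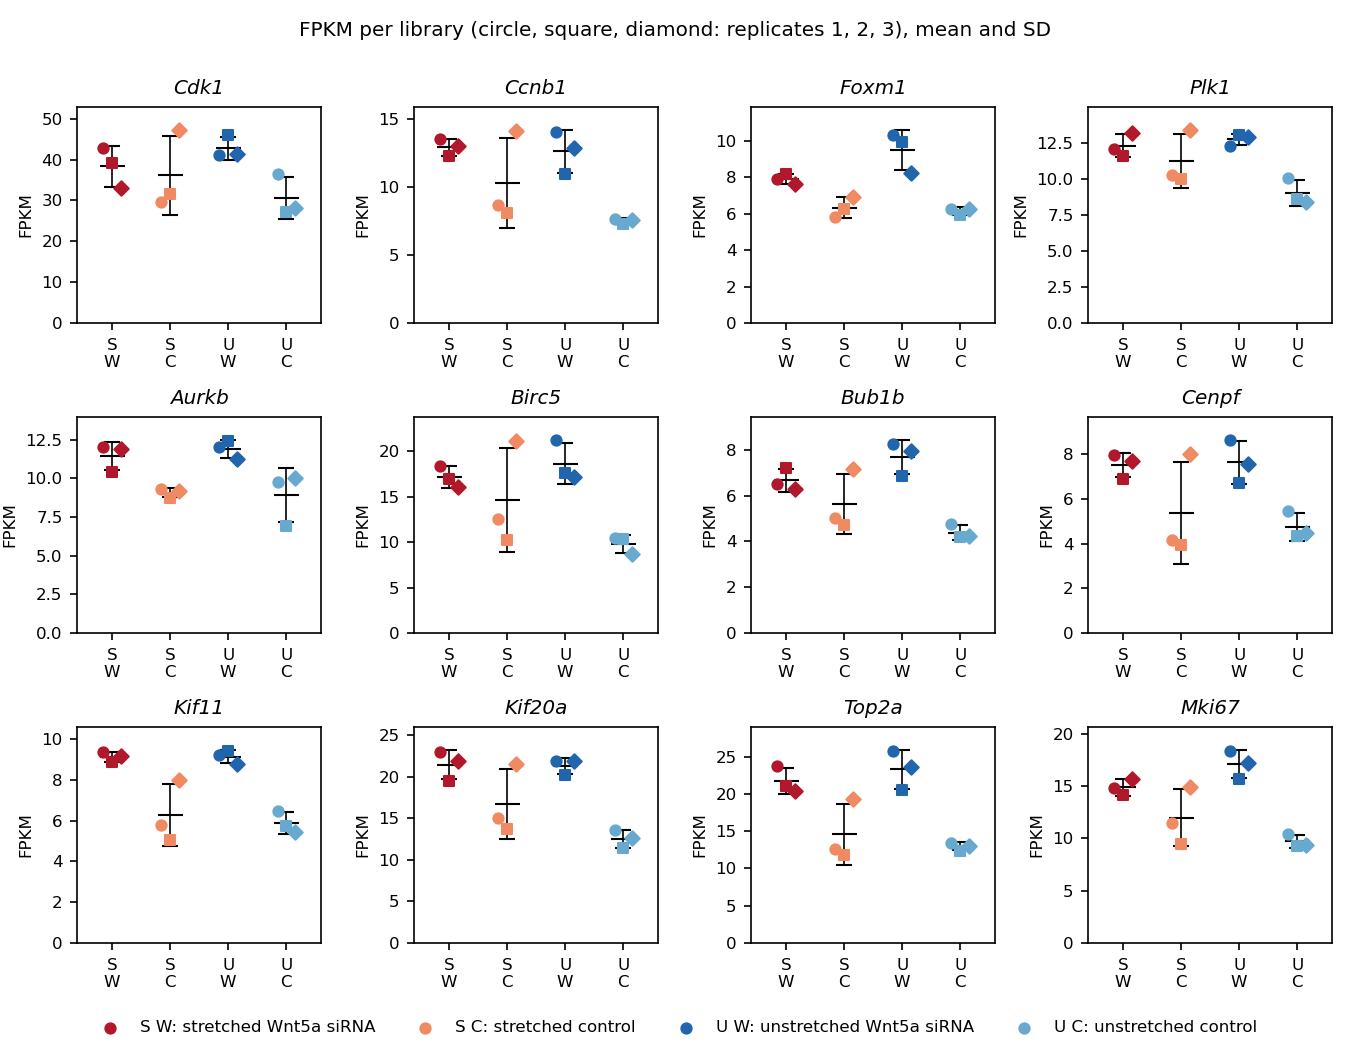
FPKM of 12 members in every library, with the group mean (horizontal line) and SD (bars) of 3 replicates, for stretched Wnt5a siRNA (S W), stretched control (S C), unstretched Wnt5a siRNA (U W) and unstretched control (U C) cells. The diamond of stretched control 3 stands above the circle and the square of its group in all panels but Aurkb.

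Among spindle motors and microtubule proteins 4 of 5 members were called higher with Wnt5a siRNA in unstretched cells, 2 (Kif11 and Nusap1) in stretched cells, and 4 in stretched cells without stretched control 3. Kif11, the motor that pushes the spindle poles apart, had 9.23, 9.40 and 8.79 FPKM in unstretched Wnt5a siRNA cells, against 6.46, 5.74 and 5.43 in unstretched controls. With stretch the levels were 9.37, 8.86 and 9.16 FPKM with Wnt5a siRNA, against 5.79, 5.04 and 7.97 with control siRNA. All 6 Wnt5a siRNA libraries lay close together and above all 6 controls, and stretched control 3 was the highest control. The rise was 0.56 ± 0.13 without stretch (adjusted p = 0.00694) and 0.50 ± 0.13 with it (adjusted p = 0.0143), the smallest adjusted p of the members under stretch. That call was lost without stretched control 1 or 2, and without stretched control 3 the change was 0.66 ± 0.09 (adjusted p = 0.000219).

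Nusap1, a spindle protein that binds microtubules, had 13.7, 10.3 and 11.7 FPKM in the unstretched Wnt5a siRNA libraries, against 10.3, 7.72 and 10.1 in the unstretched controls. Under stretch it had 10.8, 12.5 and 10.3 FPKM with Wnt5a siRNA, against 7.97, 6.94 and 8.70 with control siRNA. The unstretched groups overlapped, as they did for no other member, and the stretched groups did not. Nusap1 rose by 0.46 ± 0.13 under stretch (adjusted p = 0.0231), a call lost without stretched controls 1 or 2 or stretched Wnt5a siRNA 1 or 2. The rise was 0.53 (adjusted p = 0.00944) without stretched control 3. Ckap2, another spindle microtubule protein, had 15.8, 12.5 and 13.4 FPKM in unstretched Wnt5a siRNA cells, against 10.1, 9.85 and 10.2 FPKM in unstretched controls. Stretched cells had 16.0, 12.2 and 14.7 FPKM with Wnt5a siRNA, against 14.1, 13.0 and 15.9 with control siRNA. Only the 3 unstretched controls stood low, close to each other. Ckap2 rose by 0.43 ± 0.11 without stretch (adjusted p = 0.0136), a call lost without unstretched Wnt5a siRNA 1, and changed by −0.01 ± 0.11 with it (95% interval −0.25 to 0.23, adjusted p = 0.965), or 0.06 without stretched control 3 (adjusted p = 0.665). Hmmr, a microtubule-associated spindle protein, and Kif2c, a motor that shortens microtubules, rose by 0.75 and 0.58 without stretch. With stretch they rose by 0.75 and 0.50 without stretched control 3 (adjusted p = 0.00308 and 0.00246), and did not pass with it (adjusted p = 0.122 and 0.242).

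Of the cytokinesis genes 5 of 5 were called higher with Wnt5a siRNA in unstretched cells, 1 (Ect2) in stretched cells, and 5 in stretched cells without stretched control 3. Ect2, an exchange factor needed to form the cleavage furrow, had 9.76, 9.22 and 8.73 FPKM in unstretched Wnt5a siRNA cells, against 5.11, 4.19 and 4.96 in unstretched controls. In stretched cells it was at 8.86, 8.42 and 9.58 FPKM with Wnt5a siRNA, against 4.95, 4.62 and 8.92 with control siRNA. Stretched controls 1 and 2 lay with the unstretched controls, and stretched control 3 with the stretched Wnt5a siRNA libraries. Ect2 rose 1.94-fold without stretch (0.83 ± 0.17, adjusted p = 0.00481). With stretch it rose by 0.52 ± 0.17 (adjusted p = 0.0419) and without stretched control 3 by 0.78 ± 0.10 (adjusted p = 0.000121). The call with all libraries was lost without any 1 of the other 11, without a filter on low values and after quantile normalization.

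Kif20a, the motor that brings the passenger complex to the midzone, had 21.8, 20.2 and 21.9 FPKM in the unstretched Wnt5a siRNA libraries, against 13.6, 11.4 and 12.6 in the unstretched controls. Under stretch it had 22.9, 19.5 and 21.9 FPKM with Wnt5a siRNA, against 15.0, 13.7 and 21.6 with control siRNA. The unstretched controls were below all other libraries, with stretched controls 1 and 2 next. Its change was 0.72 ± 0.13 without stretch (adjusted p = 0.00276), 0.36 ± 0.13 with it (adjusted p = 0.0628) and 0.55 ± 0.09 without stretched control 3 (adjusted p = 0.000599). Prc1, which bundles microtubules in the midzone, had 39.2, 31.8 and 35.0 FPKM in unstretched Wnt5a siRNA cells, against 23.7, 15.9 and 19.1 FPKM in unstretched controls. Stretched cells had 33.9, 30.3 and 33.0 FPKM with Wnt5a siRNA, against 20.8, 21.0 and 31.1 with control siRNA. Unstretched control 1 was the highest of its group, yet below every library with the siRNA. Its change was 0.83 ± 0.16 without stretch (adjusted p = 0.00294), 0.42 ± 0.16 with it (adjusted p = 0.0627) and 0.61 ± 0.13 without stretched control 3 (adjusted p = 0.00319). Racgap1 and Kif23, the subunits of centralspindlin, rose by 0.51 and 0.48 without stretch. Under stretch they rose by 0.47 and 0.36 without stretched control 3 (adjusted p = 0.00231 and 0.0187), and with it stood at 0.33 and 0.20 (adjusted p = 0.0531 and 0.268).

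Top2a, topoisomerase II alpha, which untangles sister chromatids, had 25.7, 20.5 and 23.5 FPKM in the unstretched Wnt5a siRNA libraries, against 13.5, 12.4 and 13.0 in the unstretched controls. Stretched cells gave 23.8, 21.1 and 20.3 FPKM with Wnt5a siRNA, against 12.6, 11.8 and 19.3 with control siRNA. All 6 libraries with the siRNA lay above all 6 controls. Top2a rose 1.8-fold without stretch (0.79 ± 0.15, adjusted p = 0.00267) and 1.49-fold with it (0.57 ± 0.15, adjusted p = 0.0154). The call with stretch was lost without stretched controls 1 or 2 or stretched Wnt5a siRNA 1, and without stretched control 3 the change was 0.78 ± 0.10 (adjusted p = 0.000104). Mki67, the gene of the proliferation antigen Ki-67 that coats mitotic chromosomes, had 18.4, 15.7 and 17.2 FPKM in unstretched Wnt5a siRNA cells, against 10.5, 9.29 and 9.42 FPKM in unstretched controls. Under stretch the values were 14.8, 14.1 and 15.7 FPKM with Wnt5a siRNA, against 11.5, 9.51 and 14.9 with control siRNA. The unstretched groups were well apart, and stretched control 3 lay among the stretched Wnt5a siRNA libraries. Its change without stretch was 0.75 ± 0.13, with the smallest adjusted p of the members (0.00174). With stretch it was 0.31 ± 0.13 (adjusted p = 0.0851) and 0.47 ± 0.10 without stretched control 3 (adjusted p = 0.00258).

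Among the members stretch with control siRNA gave proportionally fewer calls than over all tested genes. Of the 38 members 8 were called higher, against 27.5% of all tested genes, and 0 lower, against 26.8%, so the share of higher members (21.1%) was below that of all genes. No member was lower at an unadjusted p under 0.05 in limma either. The 8 were Cdc25c, Ckap2, Cenpa, Ccnb2, Cdc20, Kif20a, Nuf2 and Plk1. The median log2 change of the members was 0.23, beside 0.01 for all tested genes. With TPM scaling it was 0.016 beside −0.20, with 2 members higher (Cdc25c and Cenpa) and 1 lower (Nusap1). Of all tested genes 1450 were higher and 4506 lower with that scaling. Without stretched control 3 the median was 0.022, with 4 higher (Ccnb2, Cdc25c, Cenpa and Ckap2), against 29.2% of all genes, and 1 lower (Pttg1, −0.48, adjusted p = 0.0266), against 28.2%. The higher count was 16 without stretched control 2, 4 without unstretched control 2 and 3 without unstretched control 3, and 1 member was lower without unstretched control 2. Markers of cell types moved with stretch under control siRNA as well. Of the tested markers 10 of 13 for fibroblasts were higher and 0 lower, 8 of 11 for macrophages and leukocytes higher and 0 lower, and 2 of 13 for cardiomyocytes higher and 6 lower. Without stretched control 3 these were 10 and 1, 6 and 0, and 3 and 6. Fibroblast sums were 7313 to 11561 FPKM in stretched controls and 5455 to 5939 FPKM in unstretched controls, macrophage sums 314 to 521.9 and 174 to 223 FPKM, and cardiomyocyte sums 14867 to 22668 and 21865 to 24892 FPKM. Their part in the members' changes was not tested.

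Of these genes Cdc25c and Cenpa kept their call under every alternative that gave a value. Cdc25c averaged 4.13 ± 0.798 FPKM in stretched and 2.27 ± 0.429 FPKM in unstretched controls (SD, n = 3 each), a rise of 0.65 ± 0.15 (adjusted p = 0.00264), or 0.54 without stretched control 3 and 0.48 with TPM scaling. Cenpa averaged 6.51 ± 1.73 FPKM in stretched and 3.90 ± 0.378 FPKM in unstretched controls, a rise of 0.59 ± 0.15 (adjusted p = 0.00509), or 0.42 and 0.40 in the same alternatives. Both genes had all 3 stretched controls above all 3 unstretched ones. Ckap2 rose by 0.47 ± 0.11 (adjusted p = 0.00334) and Ccnb2 by 0.52 ± 0.17 (adjusted p = 0.0189), and neither passed with TPM scaling (adjusted p = 0.0782 and 0.145). Both passed without stretched control 3, at 0.40 and 0.28 (adjusted p = 0.0102 and 0.035). Ccnb2 was not called without unstretched control 3. Cdc20 (0.47), Kif20a (0.37), Nuf2 (0.36) and Plk1 (0.28) passed with all libraries, and none of these 4 without stretched control 3, without unstretched control 2 or without unstretched control 3. None of the 4 passed with TPM scaling, and Cdc20 alone of them passed without a filter on low values. Nuf2 did not pass without stretched control 1 either, and Plk1 not without any 1 Wnt5a siRNA library.

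With Wnt5a siRNA stretch changed no member past the test. The counts were 0 higher, against 8.44% of all tested genes, and 0 lower, against 7.59%, and at an unadjusted p under 0.05 in limma 0 were higher and 2 (Ccna2 and Foxm1) lower. Changes ran from −0.28 to 0.06 with a median of −0.12, beside −0.007 for all tested genes, and 34 of 38 were below 0. With TPM scaling the median was −0.24, beside −0.12 for all genes, and Ccna2 (−0.34, adjusted p = 0.035) and Foxm1 (−0.34, adjusted p = 0.0289) were called lower. Of all tested genes 501 were higher and 1779 lower with this scaling. Foxm1 changed by −0.23 ± 0.10 (adjusted p = 0.129) and Ccna2 by −0.22 ± 0.10 (adjusted p = 0.161) without that scaling. The 95% interval of the change was −0.46 to 0.09 for Mki67, −0.27 to 0.27 for Kif11 and −0.60 to 0.34 for Pttg1, so single genes could have moved either way within these bounds. All 5 comparisons draw on the same 4 groups, so any pair with a group in common is not independent.

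**Figure D5:**
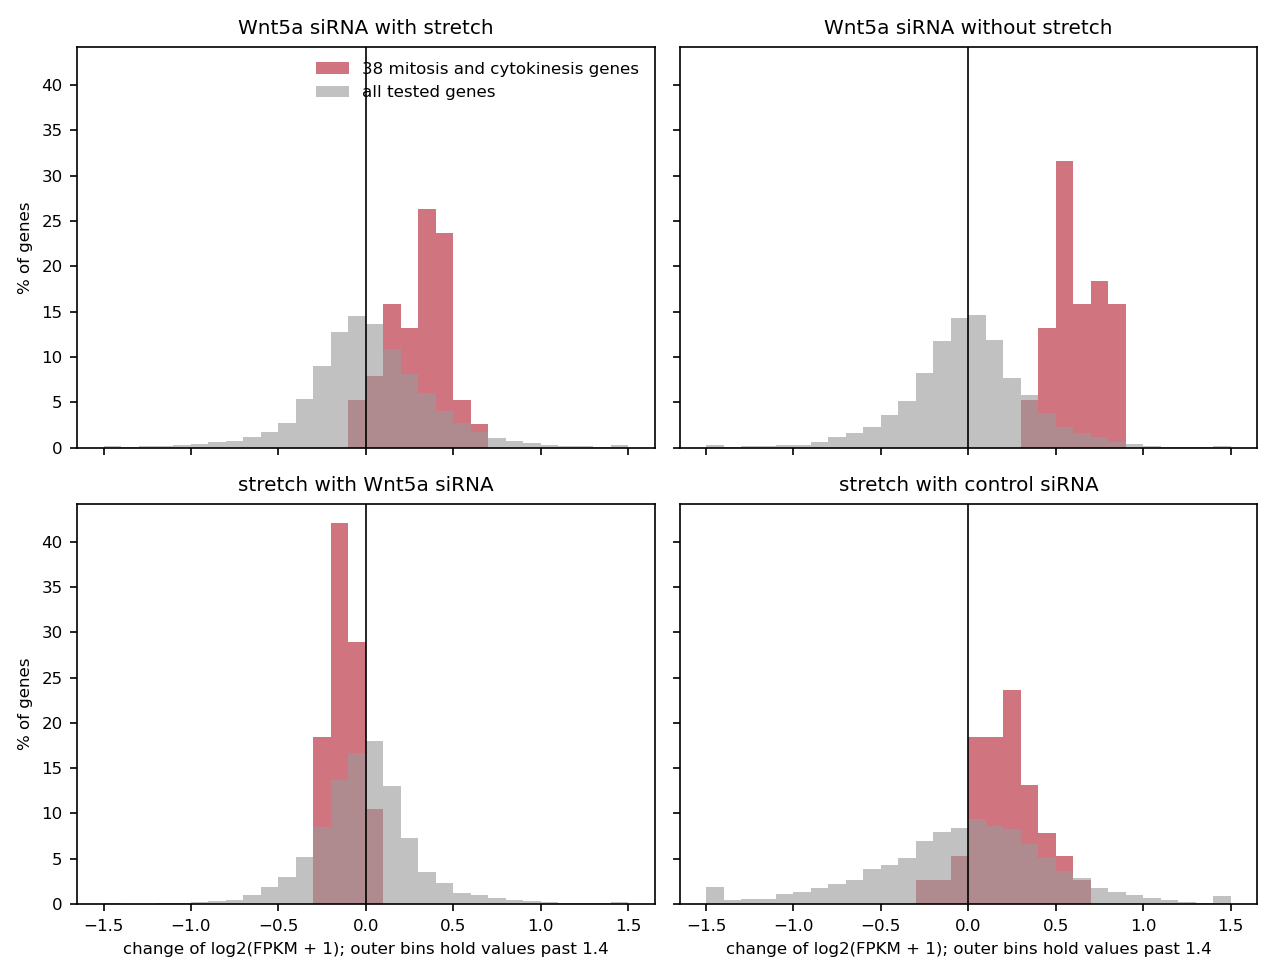
Distribution of the change of log2(FPKM + 1) over the 38 members (red) and all 10518 tested genes (grey) in 4 comparisons, as the percentage of genes in each bin. For the siRNAs the members' median was 0.32 in stretched and 0.60 in unstretched cells, and for stretch it was −0.12 under Wnt5a siRNA and 0.23 under control siRNA (0.016 with TPM scaling).

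The difference between the siRNAs in the change with stretch was tested directly. It is the change with stretch under Wnt5a siRNA minus that under control siRNA. Of the 38 members 3 were called lower by it, Cdc25c, Cdc20 and Cenpa, a share below the 12.1% of all tested genes, and 0 higher, against 11.7%. At an unadjusted p under 0.05 in limma 9 were lower and 0 higher, with no share of all genes taken at that threshold. The median over the members was −0.32, beside 0.002 for all tested genes. Cdc25c was at −0.75 ± 0.21 (adjusted p = 0.0229), the result of a change of −0.10 under Wnt5a siRNA and of 0.65 under control siRNA. For Cdc20 the difference was −0.75 ± 0.22 (adjusted p = 0.0259), from −0.28 and 0.47, and for Cenpa −0.74 ± 0.21 (adjusted p = 0.0256), from −0.15 and 0.59. Without stretched control 3 the same 3 genes were lower (−0.63, −0.56 and −0.57), against 18.1% of all genes, and 0 were higher, against 16.5%, with a member median of −0.15. With TPM scaling 815 of all tested genes were lower, and of the members Cdc25c alone (−0.67). The count was 1 without stretched Wnt5a siRNA 3, unstretched Wnt5a siRNA 1 or unstretched control 3, 0 without unstretched control 2, and 11 without stretched control 2.

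Genes around the members were described from 3 further lists. Of 85 other genes of mitosis 47 were higher and 0 lower with Wnt5a siRNA in unstretched cells (55.3% higher, against 14.6% of all tested genes, median 0.45). Among those with the smallest adjusted p were Iqgap3, a scaffold protein (0.73 ± 0.09, adjusted p = 0.000411), Dsn1 of the kinetochore (0.98 ± 0.13, 0.000691) and Nek2, a centrosome kinase (0.999 ± 0.14, 0.000869). Under stretch 14 of the 85 were higher and 2 lower, a higher share of 16.5% near the 13.2% of all genes, or 42 and 4 without stretched control 3. Of 51 DNA replication genes 41 (80.4%) were higher and 0 lower without stretch (median 0.57), among them Mcm3 of the replicative helicase. Mcm3 had 21.0, 23.1 and 19.9 FPKM in the unstretched Wnt5a siRNA libraries, against 10.7, 8.59 and 9.50 in the unstretched controls (1.08 ± 0.12, adjusted p = 0.000336). The siRNA libraries were all above the controls, and so they were in stretched cells, at 20.5, 15.6 and 16.7 FPKM against 13.9, 11.3 and 14.3 FPKM. Under stretch 20 replication genes (39.2%, against 13.2% of all genes) were higher and 0 lower, or 24 and 1 without stretched control 3. Without that library 21.8% of all tested genes were higher and 22.6% lower. For stretch with control siRNA 12 of the other mitosis genes were higher and 4 lower (9 and 7 without stretched control 3), and 10 and 2 of the replication genes (8 and 4), higher shares of 14.1% and 19.6%, both below the 27.5% of all genes. For stretch with Wnt5a siRNA 2 were higher and 5 lower among the other mitosis genes, and 0 and 5 among the replication genes, against 8.44% higher and 7.59% lower of all genes.

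Genes of MuvB, DREAM and the control of G2 and mitosis numbered 23. With Wnt5a siRNA in unstretched cells 8 (34.8%, against 14.6% of all genes) were higher. There 5 were lower, against 13.9% of all genes, and the median change of the 23 was 0.11. Under stretch 2 (8.7%, against 13.2%) were higher and 4 lower, against 14.2% of all genes. Without stretched control 3 these counts were 2 and 7, against 21.8% and 22.6% of all genes. Cdkn1a, the CDK inhibitor p21, was one of those that fell. It had 51.8, 46.6 and 48.4 FPKM in the unstretched Wnt5a siRNA libraries, against 106, 109 and 134 FPKM in the unstretched controls. Stretched cells gave 52.6, 57.7 and 59.2 FPKM with Wnt5a siRNA, against 133, 163 and 67.9 with control siRNA. All 6 libraries with the siRNA were below all 6 controls, and stretched control 3 was the lowest control. Cdkn1a changed by −1.23 ± 0.23 without stretch (adjusted p = 0.00291) and by −1 ± 0.23 with it (adjusted p = 0.01), or by −1.37 without stretched control 3. Mybl2, B-Myb, the partner of MuvB in cycling cells, had 5.23, 6.26 and 5.79 FPKM in unstretched Wnt5a siRNA cells, against 4.14, 3.37 and 3.12 FPKM in unstretched controls (0.58 ± 0.14, adjusted p = 0.0108). These groups did not overlap. Under stretch it had 5.28, 4.64 and 3.74 FPKM with Wnt5a siRNA, against 4.70, 3.47 and 4.90 FPKM with control siRNA. Those groups overlapped and did not pass, with stretched control 3 (0.05 ± 0.14, adjusted p = 0.801) or without it (0.13, adjusted p = 0.514).

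Markers of some cell types moved in the comparison in which the members rose most. In unstretched cells with Wnt5a siRNA 6 of 13 tested fibroblast markers were higher and 2 lower, against 14.6% and 13.9% of all genes. Their sum was 7811 to 8152 FPKM, against 5455 to 5939 FPKM in unstretched controls. The sum follows its most abundant markers, such as Col1a1 and Col3a1, and not every marker went with it. Dcn had 99.7, 89.9 and 110.9 FPKM with Wnt5a siRNA, against 172.6, 256.1 and 219.7 in unstretched controls. Fbln1 had 4.21, 4.44 and 5.29 FPKM, against 10.1, 17.2 and 7.98. Of 13 cardiomyocyte markers 1 was higher and 5 lower, with sums of 17806 to 18043 FPKM, against 21865 to 24892 FPKM in unstretched controls. Of 11 macrophage and leukocyte markers 0 were higher and 7 lower, with sums of 142 to 154 FPKM, against 174 to 223 FPKM. Of 10 smooth muscle and pericyte markers 3 were higher and 0 lower, and their sums overlapped (5061 to 7402 FPKM, against 5299 to 6473 FPKM). Endothelial markers summed to 31.1 to 43.0 FPKM, against 41.5 to 51.5 FPKM. These sums overlapped too, and of 9 tested endothelial markers 0 were higher and 1 lower. In stretched cells fibroblast sums were 11896 to 12577 FPKM with Wnt5a siRNA, against 7313 to 11561 FPKM with control siRNA, and macrophage sums 352 to 385 FPKM, against 314 to 521.9 FPKM. Endothelial sums were 54.7 to 89.1 FPKM in stretched Wnt5a siRNA libraries, against 43.1 to 52.4 FPKM in stretched controls, with 2 of 9 tested markers higher and 1 lower. Smooth muscle and pericyte sums were 3874 to 4638 FPKM, against 5601 to 8946 FPKM. There 7 fibroblast markers were higher and 0 lower, 0 smooth muscle and pericyte markers higher and 7 lower, and 0 cardiomyocyte markers higher and 2 lower. These counts were 7 and 0, 1 and 7, and 0 and 7 without stretched control 3. Of all tested genes 13.2% were higher and 14.2% lower there, or 21.8% and 22.6% without stretched control 3. With Wnt5a siRNA the fibroblast sums were higher in stretched than in unstretched libraries. The member sums with Wnt5a siRNA were 515.1 to 566 FPKM in stretched and 558.4 to 609.6 FPKM in unstretched cells. The part of these markers in the members' changes was not tested.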

How the data were processed

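The 12 files hold FPKM per gene symbol, deposited by the authors. Per the labels' protocols, RNA was extracted with miRNeasy and made into TruSeq stranded mRNA libraries. Bowtie2, TopHat2 2.1.1, Cuffdiff 2.2.1 and build rn6 are named per the submitters' processing notes. The sources used here do not give the annotation, strand setting or handling of reads matching several genes, so overlapping genes and near-identical copies are uncertain. Depth per library is unknown. Among 1523 low genes, under 0.5 FPKM, 1455 (95.5%) held FPKM in ratios of whole numbers (tolerance 0.03). No fragment counts were derived from them, so only FPKM were tested, and the only measure of precision is the spread between libraries.

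Values were transformed to log2(FPKM + 1). The 10518 genes with at least 1 FPKM in at least 3 libraries were fitted with limma 3.58.1 in R 4.3.3 as 4 group means (eBayes with a trend, 8 residual degrees of freedom), 2-sided, with Benjamini-Hochberg adjustment per comparison at 0.05. The fit was tested on simulated data. Groups and replicates follow the labels. Members and lists were chosen with earlier results of these data known, so lists are given as counts and medians without a test.

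By rule, library values are given for 12 chosen members, of which Anln was not analysed here, for Wnt5a and for up to 8 members with the smallest adjusted p in each comparison, and up to 4 genes are named from each other list. The library values of Cdkn1a, Mybl2 and Mcm3 were added after their values were seen. As alternatives the fit was run with a pseudocount of 0.1, without a filter, with a filter at 5 FPKM, after quantile normalization, with TPM scaling, eBayes with no trend, a block for the replicate number, and leaving out each library. Deviations of same-numbered libraries correlated at 0.143 to 0.242 in all 3 pairs for stretch with Wnt5a siRNA, where the block changed no count of members, and not in every pair elsewhere.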

Additional observations from a re-analysis of the deposited data

Results flagged for a closer look

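A direct test of the interaction term in limma found 3 members whose response to stretch was not alike under both siRNAs, a share of the 38 below the 12.1% of all tested genes called lower by it. The change under Wnt5a siRNA minus that under control siRNA was −0.747 on the log2 scale for Cdc25c, −0.755 for Cdc20 and −0.74 for Cenpa. Under Wnt5a siRNA their changes with stretch were −0.10, −0.28 and −0.15, and under control siRNA 0.65, 0.47 and 0.59. Each of the 3 calls was lost without at least 1 library, and all 3 without unstretched control 2. With TPM scaling Cdc25c kept its call (adjusted p = 0.0356), while Cdc20 (0.0551) and Cenpa (0.0536) did not.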

How the results depend on the processing

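No called change of a member reversed under any of the 19 alternatives. For stretch with control siRNA the count of higher members, 8 as reported, was 5 without a filter, 2 with TPM scaling (with 1 lower and a median of 0.016) and 15 after quantile normalization. TPM scaling gave 2 lower members for stretch with Wnt5a siRNA, beside 1779 lower genes among all tested. For Wnt5a siRNA with stretch, 9 as reported, the count was 4 without a filter, 18 with TPM scaling and 4 after quantile normalization. Leaving out single libraries gave 3 to 16 higher and 0 to 1 lower members for stretch with control siRNA (median 0.022 to 0.35), 0 to 0 for stretch with Wnt5a siRNA (−0.15 to −0.07), 0 to 27 higher for Wnt5a siRNA with stretch (0.19 to 0.50) and 22 to 37 without stretch (0.56 to 0.67). For the interaction it gave 0 to 11 lower (−0.45 to −0.15), against 3 as reported, and there TPM scaling gave 1 and quantile normalization 5.

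With the replicate number as a block, the higher counts were 10 for stretch with control siRNA, 0 for stretch with Wnt5a siRNA, 10 for Wnt5a siRNA with stretch and 35 without it, and 4 members were lower by the interaction. Outside stretch with Wnt5a siRNA the pairing rests on shared numbers alone, at correlations of −0.02 to 0.25, and not every library correlated best with its own number. Fragment counts were not derived from the FPKM, so no limits from depth are given.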
